A study of Mus musculus with 2 samples.

Results

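The genes described here are 10 genes used to tell apart the subsets of dendritic cells: Siglech, Tcf4, Clec9a, Batf3, Zbtb46, Itgax, Cd209a, Mgl2, Clec10a and Clec4b1. They were taken by name, and all 10 were found among the 19347 genes of the deposited table of annotated cells. Their counts were followed over the 22 deposited cell clusters of the mouse dural meninges and, in detail, in clusters 11, 14 and 18. The dural meninges are the outer covering of the brain and hold fibroblasts, developing B cells, macrophages and other immune cells.

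The study set IL-33-deficient mice against heterozygous controls at postnatal day 14 (2 weeks of age), and its design text names the role of IL-33 signalling in the dura as the question. The het library came from mice with 1 mCherry allele at Il33 (Il33H2B-mcherry-het), and the KO library from mice with that allele on both chromosomes (Il33H2B-mcherry-KO), so the H2B-mCherry allele was present in both groups. For each genotype and sex, the tissue of 5 to 8 animals was pooled, and each genotype gave 1 library. Sorted CD45+CD11b- cells, sorted gp38+CD31- cells and all viable cells were mixed 1:1:2, so cells that carry CD11b, as many type 2 conventional dendritic cells, monocytes and macrophages do, entered through the viable share alone. With 1 library per genotype there is no replicate check and no test between genotypes. The intervals given are exact 95% intervals that cover counting error only.

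The libraries held 10936 (het) and 12046 (KO) cell barcodes, of which 5950 and 6594 were annotated, with median totals of 12746.5 and 12203.5 unique molecular identifiers (UMIs, counts of captured RNA molecules) per annotated cell. They shared 36 barcode sequences, 14 of them annotated in both. Il33, the targeted gene, had 3827 UMIs in annotated het cells and 911 in annotated KO cells, or 43.5 and 9.68 CPM (a gene's UMIs scaled to all UMIs of the same cells), with a KO/het ratio of 0.222 (0.207 to 0.239). Summed fibroblast markers in cluster 11 were 3007 CPM in het and 1621 CPM in KO, and the part of this difference in the results below was not tested.

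Dendritic cells take up antigen and present it to T cells, and are grouped by origin and surface receptors. Plasmacytoid dendritic cells (pDC) are sources of type I interferon, carry the sialic-acid-binding lectin Siglec-H (Siglech) and depend on the E-protein transcription factor Tcf4. Type 1 conventional dendritic cells (cDC1) need the transcription factor Batf3, and use the lectin receptor Clec9a to take up dead-cell material for presentation to CD8 T cells. Type 2 conventional dendritic cells (cDC2) are more varied and share many genes with monocytes and macrophages. Zbtb46, a zinc-finger transcription factor, and Itgax, the integrin chain CD11c, mark conventional dendritic cells in general. Cd209a (a relative of DC-SIGN), Mgl2 and Clec10a (the galactose-type lectins CD301b and CD301a) and Clec4b1 (the receptor DCAR) are C-type lectins used to mark cDC2 and related cells.

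The genes lie on several chromosomes (GRCm38, GENCODE M21 gene bounds). Siglech is at chr7:55768178-55778925, Clec9a at chr6:129408862-129424763, Cd209a at chr8:3743397-3748984 and Clec4b1 at chr6:123049962-123071555. Mgl2 (chr11:70130329-70137550) and Clec10a (chr11:70156197-70170834) are neighbours on chromosome 11, with 18647 bases between them. Promoters are shown for the 5 genes on which the results turn: Siglech and Clec9a, which marked small groups of cells inside cluster 11, and Cd209a, Clec4b1 and Mgl2, whose levels peaked in that cluster. Each is the stretch from 250 to 31 bases before the annotated start (RefSeq, GRCm38.p6), 5′ to 3′ on the gene's strand, and capitals mark a motif match.
Siglech (chr7:55767934-55768153, plus strand): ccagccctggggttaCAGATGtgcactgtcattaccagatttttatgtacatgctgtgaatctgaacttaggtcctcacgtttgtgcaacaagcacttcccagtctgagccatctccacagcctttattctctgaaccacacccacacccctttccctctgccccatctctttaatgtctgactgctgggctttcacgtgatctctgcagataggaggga
Clec9a (chr6:129408612-129408831, plus strand): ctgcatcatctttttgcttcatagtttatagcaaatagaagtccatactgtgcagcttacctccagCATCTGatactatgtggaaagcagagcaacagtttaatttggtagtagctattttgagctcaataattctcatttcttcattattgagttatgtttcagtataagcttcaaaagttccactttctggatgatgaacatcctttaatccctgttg
Cd209a (chr8:3749015-3749234, minus strand): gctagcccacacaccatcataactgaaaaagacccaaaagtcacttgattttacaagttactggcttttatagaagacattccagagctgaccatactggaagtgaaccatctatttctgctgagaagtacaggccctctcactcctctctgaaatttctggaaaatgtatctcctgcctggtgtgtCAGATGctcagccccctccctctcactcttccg
Clec4b1 (chr6:123049712-123049931, plus strand): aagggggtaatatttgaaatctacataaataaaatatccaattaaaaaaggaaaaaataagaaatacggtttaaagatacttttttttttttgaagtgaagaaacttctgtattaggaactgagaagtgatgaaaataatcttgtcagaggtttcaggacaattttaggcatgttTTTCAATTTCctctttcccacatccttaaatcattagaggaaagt
Mgl2 (chr11:70130107-70130326, plus strand): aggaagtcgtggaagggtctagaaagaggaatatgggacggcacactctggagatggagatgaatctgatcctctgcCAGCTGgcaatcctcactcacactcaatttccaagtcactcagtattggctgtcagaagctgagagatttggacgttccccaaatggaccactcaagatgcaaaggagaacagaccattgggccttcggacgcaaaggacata

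Of the 10 genes, 8 had an entry in the promoter table, and Tcf4 and Clec10a did not. Motifs were searched on both strands. An E-box (CAGNTG), the kind of site E proteins such as Tcf4 bind, was found in 5 of the 8 windows (Siglech, Clec9a, Zbtb46, Cd209a and Mgl2) and in 40.9% of all 32851 promoter windows of the same length. The IRF motif was found in Clec4b1 alone among the 8, and in 2.63% of all windows. The AP-1 motif TGANTCA, to which Batf3-type factors bind, was found in Zbtb46 and Itgax, and in 6.12% of all windows. The ETS-IRF composite (2.00% of all windows), whose last letters are those of the IRF motif, and the PU.1 motif GAGGAAGT (2.04%) were found in none of the 8. These are letter matches, not measured binding sites.

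The deposited clusters were first set against marker lists for each cell type. Cluster 14 (148 het and 129 KO cells) had 8 of 8 cDC1 markers and 6 of 6 general conventional dendritic cell markers at least 2-fold above all other cells, 5 of 6 markers of migratory dendritic cells, and none of 8 cDC2 markers, and is called cDC1-like. Cluster 18 (91 and 92 cells) had 7 of 8 monocyte markers, led by Ly6c2, and is called monocyte-like, and its only cDC2 marker was Sirpa. Cluster 11 (196 and 240 cells) had 5 of 8 cDC2 markers, 5 of 9 pDC markers, 5 of 8 monocyte markers and 12 of 12 macrophage markers, so it is not given a cell type name. Its leading genes were Cd209a, Cd209d, Tnip3, Ccl17, Clec4b1 and Ear2.

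**Figure D1:**
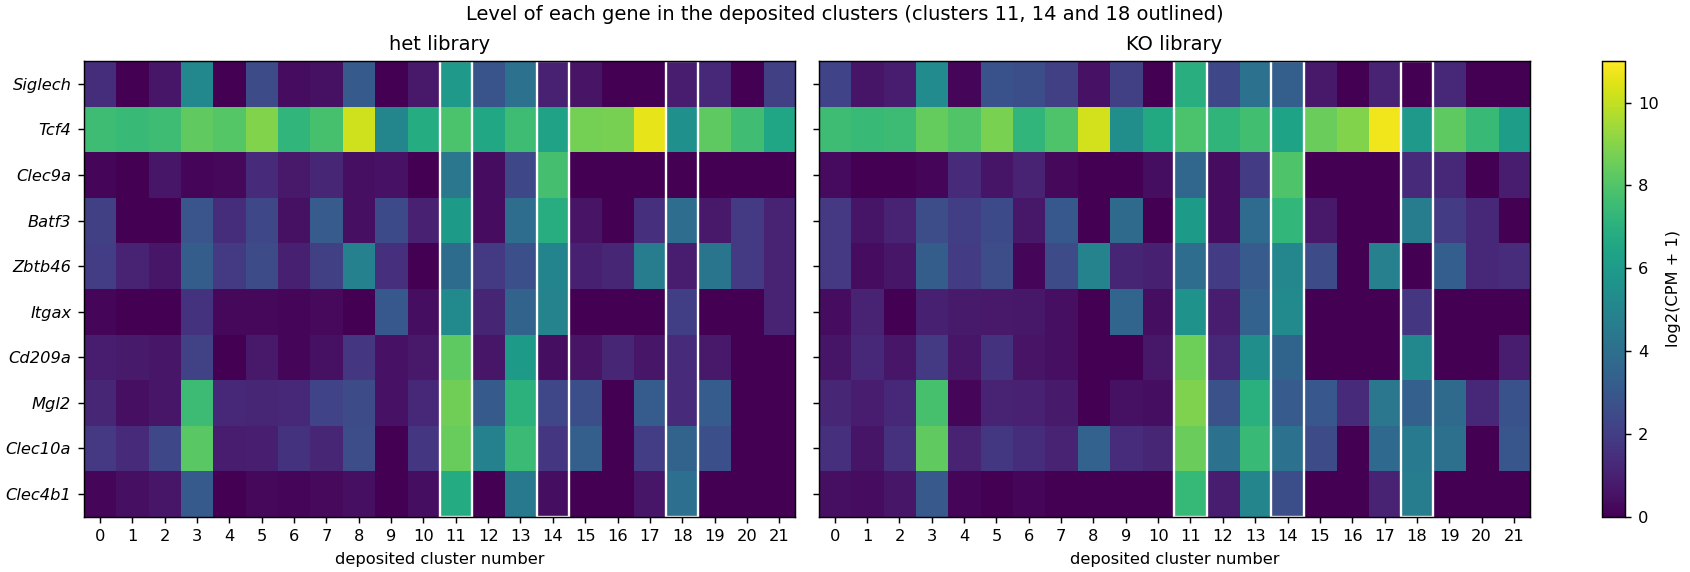
Level of each of the 10 genes as log2(CPM + 1), by colour, in the 22 deposited clusters (horizontal) of the het library (left) and the KO library (right), with clusters 11, 14 and 18 outlined. Clec9a was brightest in cluster 14, Cd209a, Mgl2, Clec10a and Clec4b1 in cluster 11, and Tcf4 in clusters 17 and 8.

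Siglech had its highest level in cluster 11, with 59.1 CPM in het (52.6 to 66.1) and 117 CPM in KO (108 to 127). Cluster 3, in which 12 of 12 macrophage markers stood at least 2-fold above the rest, followed at 33.9 and 38.5 CPM, and cluster 13, which had neutrophil and macrophage markers, at 16.5 and 16.8 CPM. In this order the intervals of neighbouring clusters did not overlap. Siglech was near 0 in cluster 14 (1.00 and 9.15 CPM) and cluster 18 (1 UMI in het and 0 in KO), and was 0.351 and 2.40 CPM in the B lineage clusters, taken as a background. The B lineage value in KO rested on few cells, since 26 of its 45 UMIs were in 1 cell.

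Tcf4 did not follow Siglech. It was highest in cluster 17 (1558 CPM in het and 1717 in KO) and then in cluster 8 (1168 and 1209 CPM), whose cell types were not examined here. In cluster 11 it was at 232 and 237 CPM, in cluster 14 at 79.2 and 81.6 CPM and in cluster 18 at 44.3 and 58.3 CPM. The B lineage clusters had 168 and 166 CPM, with a Tcf4 UMI in 58.0% and 57.8% of their cells, so a Tcf4 UMI alone did not set pDC apart.

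Clec9a was nearly confined to cluster 14, with 218 CPM (201 to 235) in the het library and 248 CPM (229 to 269) in the KO library. That cluster held 82.0% of all Clec9a UMIs of annotated het cells and 84.9% of those of KO cells. Cluster 11 followed at 19.3 and 11.2 CPM with 12.5% and 8.57% of the UMIs, and cluster 13 at 4.27 and 2.71 CPM. Batf3 was also highest in cluster 14 (115 and 156 CPM) but was spread more widely, with 63.0 and 62.2 CPM in cluster 11, and 14.2 and 24.4 CPM in cluster 18. Cluster 14 held 36.3% and 36.9% of all Batf3 UMIs, and cluster 11 34.2% and 32.9%.

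Zbtb46 was at 30.4 and 33.4 CPM in cluster 14, 27.4 and 29.1 in cluster 8 and 24.3 and 26.6 in cluster 17, with overlapping intervals. It was at 13.7 and 14.2 CPM in cluster 11. Itgax was highest in cluster 11 (36.7 and 47.1 CPM) and cluster 14 (29.4 and 37.0 CPM), whose intervals overlapped, and then fell to 10.3 and 9.87 CPM in cluster 13. Cluster 11 held 52.2% and 56.9% of all Itgax UMIs.

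The 4 lectin genes all had their highest level in cluster 11, and differed in where else they were found. Cd209a was at 305 CPM in het and 384 in KO, and cluster 11 held 84.2% and 87.3% of its UMIs. Clec4b1 was at 107 and 162 CPM, with 77.0% and 79.0% of its UMIs there. Mgl2 (394 and 473 CPM) and Clec10a (342 and 353 CPM) were shared with the macrophage-marker cluster 3, which had 183 and 225 CPM of Mgl2 and 290 and 313 CPM of Clec10a. Cluster 3 held 45.9% and 43.5% of Clec10a UMIs and 34.8% and 32.9% of Mgl2 UMIs, but had 3.48 and 2.61 CPM of Cd209a.

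Part of the RNA ends of Clec4b1, Clec10a and Mgl2 is shared with other genes. Of the 30-base words in the last 500 bases of their annotated transcripts, 28.9%, 21.7% and 10.2% occur in another gene, mainly Clec4a2, Mgl2 and H2-Q6. Counts of these 3 genes are therefore uncertain where reads also match another gene. The share was 4.30% for Clec9a and 1.04% for Siglech, and 0 for the other 5 genes.

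Across the 22 clusters, the genes most like each member were ranked by the Pearson correlation of log2(CPM + 5) among 14142 genes, as a description over clusters of the same libraries. Clec9a was most like Xcr1 (r = 0.996), the chemokine receptor of cDC1, and Il12b (r = 0.994). Cd209a and Clec4b1 were most like each other (r = 0.980), as were Mgl2 and Clec10a (r = 0.974). Siglech was most like Asgr2 (r = 0.921), Cd209b (r = 0.919) and Mgl2 (r = 0.909), none of which is a pDC marker. Batf3 was most like Slamf8 (r = 0.952) and Itgax most like Batf3 (r = 0.916). Zbtb46 and Tcf4 had weaker matches, with Ccser1 (r = 0.833) and Zfp760 (r = 0.856).

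In cluster 11, Siglech and Clec4b1 were at least 1.5-fold higher in the KO library, Clec9a was at least 1.5-fold lower, and the other 7 genes were within 1.5-fold. Among the 11626 genes with at least 20 UMIs in this cluster, 3.73% were at least 1.5-fold higher in KO and 9.6% at least 1.5-fold lower. Thus 2 of 10 members were past the fold upward and 1 of 10 downward. The median log2 ratio of the members was 0.16, beside -0.07 for all genes measured.

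Siglech had 303 UMIs in the het cells and 659 in the KO cells of cluster 11, a KO/het ratio of 1.98 (1.73 to 2.28). Clec4b1 had 546 and 912 UMIs, a ratio of 1.52 (1.37 to 1.70). Clec9a had 99 and 63 UMIs, a ratio of 0.580 (0.416 to 0.804). By the deposited sex label, which follows the presence of an Xist UMI, the Clec9a ratio was 0.347 (0.213 to 0.548) in cells labelled female and 1.66 (0.864 to 3.39) in cells labelled male, and that of Clec4b1 was 1.84 (1.61 to 2.12) and 1.07 (0.899 to 1.27). The intervals of Clec4b1 and Clec9a both reached inside 1.5-fold, and that of Siglech did not. Cd209a had 1564 and 2161 UMIs with a ratio of 1.26 (1.18 to 1.35), Mgl2 2020 and 2661 with 1.20 (1.13 to 1.27), and Itgax 188 and 265 with 1.29 (1.06 to 1.56). The direction turned by sex label for Cd209a, with 1.60 (1.47 to 1.74) in cells labelled female and 0.822 (0.740 to 0.915) in cells labelled male, and for Mgl2, with 1.42 (1.32 to 1.52) and 0.913 (0.825 to 1.01). Clec10a had 1.10 (1.02 to 1.20) and 0.895 (0.804 to 0.998). Tcf4 (1.02), Batf3 (0.988), Zbtb46 (1.04) and Clec10a (1.03) had ratios close to 1, and their intervals included 1.

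**Figure D2:**
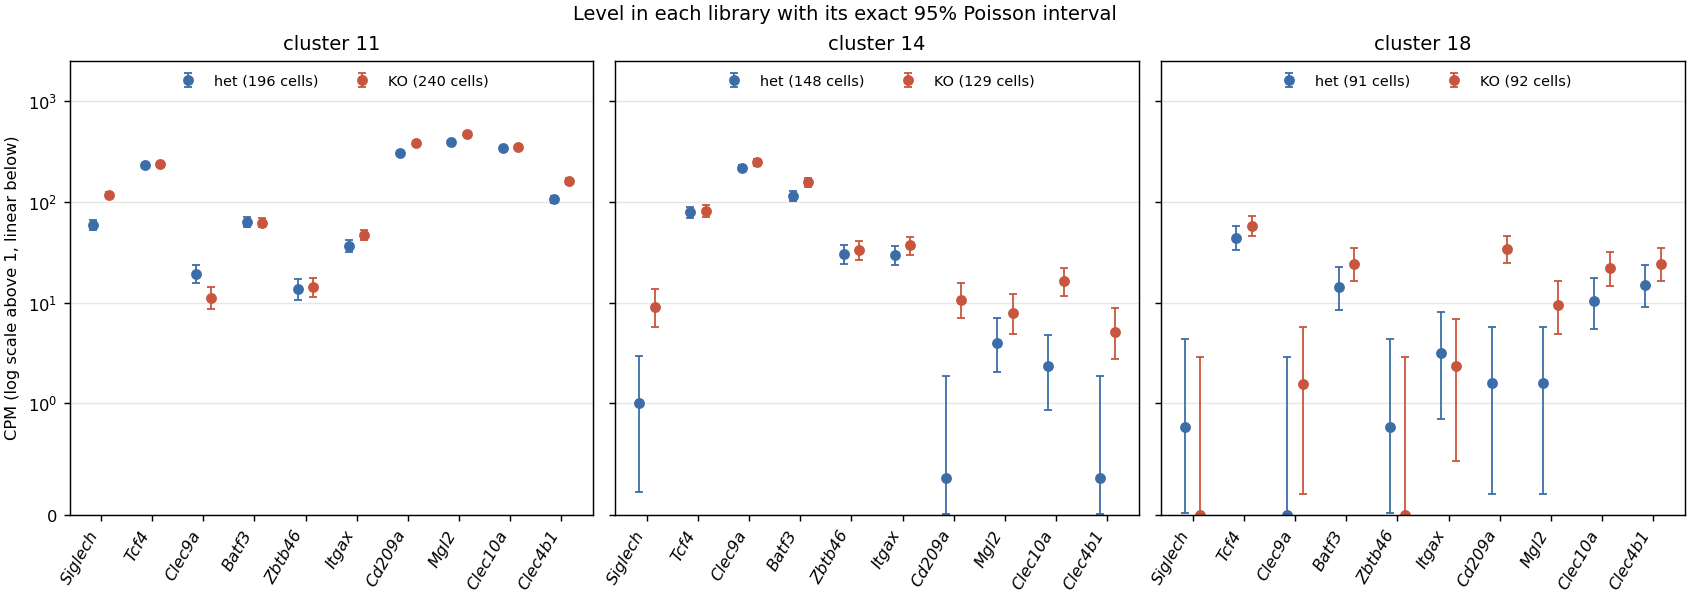
Level in CPM of the 10 genes in clusters 11, 14 and 18, on a log scale above 1 and a linear scale below, with points for the het (blue) and KO (red) libraries and bars for exact 95% Poisson intervals. In cluster 11 the KO point is clearly above the het point for Siglech and Clec4b1 and below it for Clec9a, and in clusters 14 and 18 several lectin genes rest on under 50 UMIs.

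To see which cells carried these UMIs, cells were marked by genes other than the 10: pDC-marked cells had a UMI of at least 4 of Ccr9, Spib, Runx2, Cox6a2, Klk1, Pacsin1 and Bst2, and cDC1-marked cells a UMI of at least 4 of Xcr1, Cadm1, Itgae, Tlr3, Wdfy4 and Naaa. These limits were set after the data were seen, and they cut a range: in cluster 11, 10 KO and 13 het cells had 3 of the pDC genes, and 6 KO and 2 het cells had 4. Of the cDC1 genes, 28 KO and 20 het cells had 3, and 5 KO and 2 het cells had 4. In the het library 14 of 196 cells were pDC-marked (7.14%, exact Clopper-Pearson interval 3.96 to 11.7), and in the KO library 32 of 240 (13.3%, 9.30 to 18.3). The intervals of the shares overlapped, and with at least 3 of the 7 genes the shares were 13.8% and 17.5%. Over all annotated cells the count was 23 of 5950 in het and 53 of 6594 in KO.

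Within cluster 11 the pDC-marked cells held 75.2% of Siglech UMIs in het and 86.6% in KO. Their Siglech level was 901 CPM (787 to 1025) in the het library and 1233 CPM (1134 to 1338) in the KO library. The KO/het ratio of these levels was 1.37 (1.17 to 1.60). Siglech was found in 13 of 14 het and 32 of 32 KO pDC-marked cells, with medians of 11.5 and 20.5 UMIs per cell. In the remaining 182 het and 208 KO cells of the cluster Siglech was at 15.4 and 17.1 CPM, and the ratio was 1.11 (0.805 to 1.53). Without the pDC-marked cells, then, Siglech was within 1.5-fold in this cluster. The het pDC-marked cells held 640 CPM of the macrophage gene C1qa and 1473 CPM of the collagen gene Col1a1, against 184 and 346 CPM in the KO cells. Among these marked cells, 8 of 14 het and 3 of 32 KO cells were in the tenth of cells with the highest doublet score. Of all cells of the cluster, 22.4% of het and 15.4% of KO cells were. Whether a high score marks a doublet was not tested.

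Tcf4 moved with the pDC mark as well, at 881 CPM in het and 1049 in KO against 199 and 164 CPM in the other cells of cluster 11, so its level in marked cells was 4.43-fold higher in het and 6.41-fold higher in KO. From het to KO, Tcf4 was thus higher in the marked cells and lower in the others, while the KO/het ratio of the whole cluster was 1.02. Batf3 was 0.120 and 0.0963 of its level in the other cells. Clec4b1 was listed at 0 UMIs in the 14 het cells and had 8 UMIs in the 32 KO cells.

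Cd209a was not absent from the pDC-marked cells: 8 of 14 het and 20 of 32 KO cells had a UMI, with 19 and 160 UMIs in all, and 43 of the KO UMIs in 1 cell. In the B lineage cells a Cd209a UMI was found in 0.415% and 0.599%. The B lineage cells were shallower, with medians of 4965 and 4967 UMIs, than the pDC-marked cells, with 11046 and 11749.5. The Cd209a level in the KO pDC-marked cells (346 CPM) was 0.891 of that in the other cells of the cluster (0.754 to 1.05), while in het it was 0.237 (0.142 to 0.371). Mgl2 was low in the marked cells of both libraries, at 67.1 and 71.3 CPM.

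**Figure D3:**
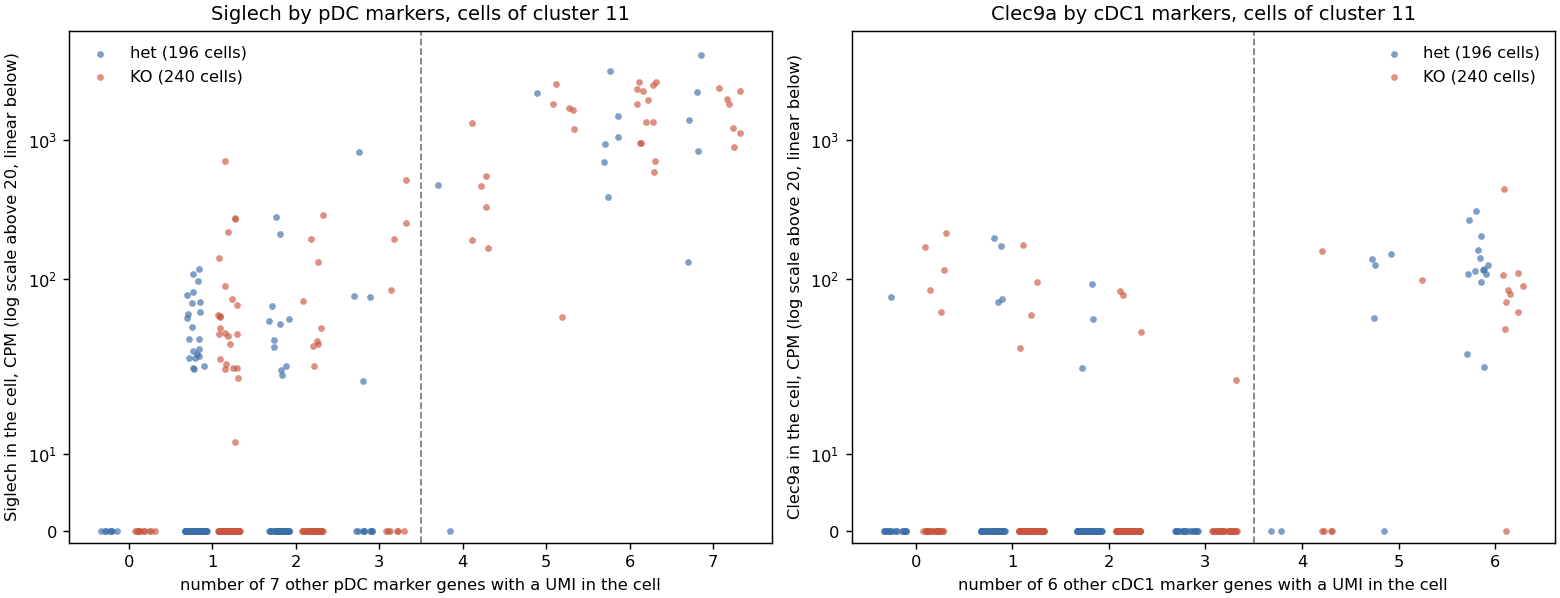
Each point is a cell of cluster 11 (196 het, blue; 240 KO, red), with its Siglech level by the number of 7 pDC genes present (left) and its Clec9a level by the number of 6 cDC1 genes present (right), in CPM on a scale that is log above 20 and linear below; points are spread sideways only to part them. Right of the dashed line at least 4 genes are present, and Siglech there has median levels of 983 CPM in het and 1337 CPM in KO cells.

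The cells of cluster 11 with a Siglech UMI but without the pDC mark mostly had macrophage genes. Of 50 het cells of cluster 11 with a Siglech UMI, 37 were not pDC-marked, and 34 of these had at least 6 of 12 macrophage markers. In KO it was 37 of 69 cells, of which 32 had the macrophage markers. In cluster 3, 24.9% of het and 27.5% of KO cells had a Siglech UMI, yet 1 of 111 and 0 of 121 such cells were pDC-marked. Cells with at least 10 C1qa UMIs held 100% and 98.9% of the Siglech UMIs of cluster 3, and were 96.0% and 95.2% of its cells.

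With overlapping intervals, the cDC1 mark fell on 21 of 196 het cells (10.7%, 6.76 to 15.9) and 16 of 240 KO cells (6.67%, 3.86 to 10.6) of cluster 11. These cells held 87.9% of the Clec9a UMIs of the cluster in het and 74.6% in KO, at 111 and 73.2 CPM. Without them Clec9a was at 2.76 and 3.21 CPM, and the ratio was 1.16 (0.516 to 2.69) in place of 0.580. This rests on few UMIs, and 10 of those left in KO were in pDC-marked cells. In cells with neither mark Clec9a was at 2.89 CPM in het and 1.33 CPM in KO, again lower in KO. The cDC1-marked cells of cluster 11 were deep, with median totals of 35893 and 39085 UMIs against 21681 and 18571 in the rest. They held 1763 and 1718 CPM of the macrophage gene C1qa, whereas the cDC1-marked cells of cluster 14 held 20.4 and 30.5 CPM.

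The lectin genes stood highest in the cells of cluster 11 with none of these marks. The 162 het and 192 KO cells that were neither pDC- nor cDC1-marked had Cd209a at 354 and 419 CPM, Mgl2 at 459 and 547 CPM, Clec10a at 389 and 388 CPM and Clec4b1 at 128 and 188 CPM. The Clec4b1 ratio in them was 1.47 (1.32 to 1.64), just inside 1.5-fold. Cells that also lacked the macrophage mark (44 het and 50 KO) had the higher levels, with Cd209a at 745 and 873 CPM, Mgl2 at 689 and 896 CPM, and Clec4b1 at 192 and 276 CPM. The MHC class II gene H2-Aa was at 7919 and 9790 CPM in those cells. Macrophage-marked cells, 139 of 196 and 158 of 240, still had Cd209a at 224 and 287 CPM, beside C1qa at 2047 and 2207 CPM.

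**Figure D4:**
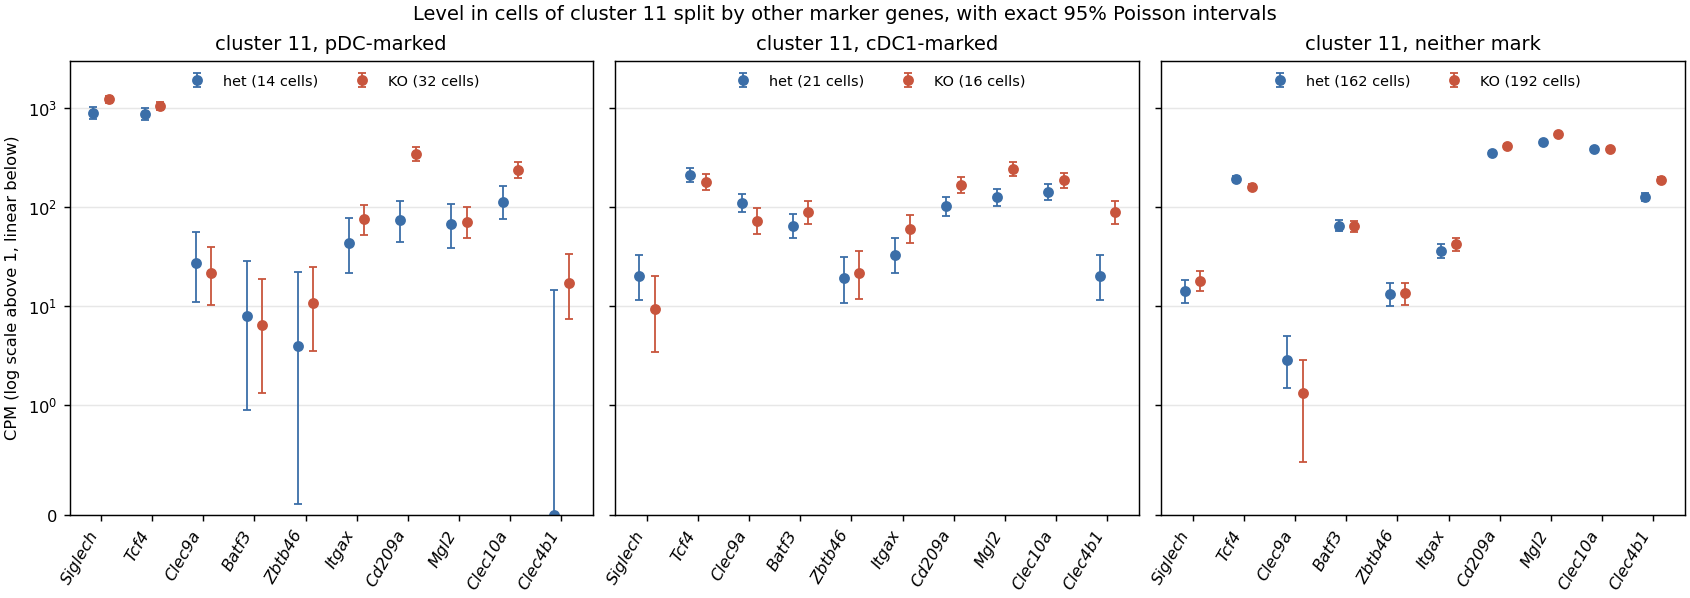
Level in CPM of the 10 genes in the pDC-marked, cDC1-marked and remaining cells of cluster 11, on a log scale above 1 and a linear scale below, with points for the het (blue) and KO (red) libraries and exact 95% Poisson intervals. Siglech is at 901 and 1233 CPM and Tcf4 at 881 and 1049 CPM in the pDC-marked cells, and Clec9a is at 111 and 73.2 CPM in the cDC1-marked cells against 2.89 and 1.33 CPM in the remaining ones.

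In cluster 14 the ratios of the cDC1 genes Clec9a and Batf3 were within 1.5-fold, above 1, and neither interval included 1. Clec9a had 651 and 624 UMIs (KO/het ratio 1.14, 1.02 to 1.28), and Batf3 had 343 and 392 UMIs (1.36, 1.17 to 1.58). Zbtb46 (91 and 84 UMIs) and Itgax (88 and 93 UMIs) had ratios of 1.10 and 1.26, with intervals that included 1. The 4 members past 1.5-fold, out of 9 measured, were Siglech, Cd209a, Mgl2 and Clec10a, all higher in KO, where 6.57% of the 9895 genes measured were at least 1.5-fold higher and 10.8% at least 1.5-fold lower. The median log2 ratio of these 9 genes was 0.44, beside -0.03 for all genes measured. In het each of the 4 higher members had under 20 UMIs, so they reached the limit of 20 only with their KO UMIs. The count and the median are thus partly set by that limit. The interval of Mgl2 (ratio 1.98, 0.924 to 4.45) included 1.

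Those 4 ratios were carried largely by 2 KO cells. One KO cell with 34245 UMIs in total held 27 of the 27 Cd209a UMIs, 18 of 20 Mgl2 UMIs and 34 of 41 Clec10a UMIs, and another with 33175 UMIs held 15 of 23 Siglech UMIs. Both were among the tenth of annotated cells with the highest doublet score, as were 29.5% of all KO cells of the cluster. In het the 4 genes had 1, 12, 7 and 3 UMIs. Without the richest cell of each gene in each library, Siglech was at a ratio of 4.78 (0.954 to 46.2), Clec10a at 2.09 (0.532 to 9.75) and Mgl2 at 0.300, each with an interval that included 1, and Cd209a had no UMI left in either library. Without the cells of highest doublet score these 4 genes had under 20 UMIs over both libraries and could not be compared, and the 5 members still measured were within 1.5-fold.

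A group of 18 het and 17 KO cells of cluster 14 had at least 4 of the migratory dendritic cell genes Ccr7, Fscn1, Ccl22, Cacnb3, Il4i1 and Socs2. In these cells Clec9a was at 6.75 CPM in het and 29.1 CPM in KO, against 241 and 272 CPM in the rest of the cluster. Batf3 was at 148 and 220 CPM in them against 111 and 149 CPM. Zbtb46 was at 43.9 and 37.4 CPM against 28.9 and 33.0 CPM, with intervals of the ratio that included 1. Siglech and the 4 lectin genes had 0 UMIs there in both libraries. Of these cells, 13 of 18 and 15 of 17 were among those of the highest doublet score, beside 27.7% of all het and 29.5% of all KO cells of the cluster.

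In cluster 18 the members were sparse. Siglech, Clec9a, Zbtb46, Itgax and Mgl2 had under 20 UMIs over both libraries and were not compared. Cd209a had 2 UMIs in het and 43 in KO, the latter in 5 cells with 25 in 1 of them. Clec10a had 13 and 28 UMIs (ratio 2.14, 1.07 to 4.51), Clec4b1 19 and 31 (1.62, 0.889 to 3.04) and Batf3 18 and 31 (1.71, 0.929 to 3.25). Tcf4 had 56 and 74 UMIs and a ratio of 1.31. Thus 4 of 5 measured members were at least 1.5-fold higher in KO, where 5.43% of 8015 genes were at least 1.5-fold higher and 12.7% at least 1.5-fold lower, and the intervals of Clec4b1 and Batf3 included 1. The median log2 ratio of the 5 measured members was 0.78, beside -0.08 for all genes measured. In het each of the 4 higher members had under 20 UMIs, so they reached the limit of 20 only with their KO UMIs. The count and the median are thus partly set by that limit, and are given as description only.

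The MHC class II UMIs of the KO cells of cluster 18 lay mostly in a single cell for each gene. For H2-Aa it held 471 of 554 UMIs, and for H2-Eb1 423 of 482. The 7 KO cells with at least 2 of the 4 lectin genes together held 472 H2-Aa UMIs, 424 H2-Eb1 UMIs and 41 of 43 Cd209a UMIs, so for each of the 2 class II genes all but 1 of their UMIs were in 1 of the 7. In the het library 5 cells had at least 2 of the lectin genes, with 1 of 23 H2-Aa UMIs.

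Coexpression was read per cell by gene gates. In cluster 11, Siglech and Tcf4 were both present in 24.0% of het cells (18.2 to 30.6) and 28.3% of KO cells (22.7 to 34.5). Siglech cells nearly all had Tcf4, in 47 of 50 het and 68 of 69 KO cells, but 86.3% and 80.1% of cells without Siglech had it too. At least 2 of the 4 lectin genes were present in 83.2% of het cells and 79.2% of KO cells of cluster 11, in 1.35% and 1.55% of cluster 14, and in 5.49% and 7.61% of cluster 18. Clec9a with Batf3 was present in 76.4% and 76.7% of the cells of cluster 14, and in 10.2% and 5.42% of cluster 11. Zbtb46 with Itgax was present in 18.9% and 21.7% of cluster 14 and 13.8% and 16.3% of cluster 11.

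The same gates held at most 0.277% of B lineage cells, which were shallower than the cells of cluster 11 (medians of 23815.5 and 19572 UMIs). With each cell thinned to 5000 UMIs, which left out 1 het and 2 KO cells of cluster 11 and 973 of 1929 het and 1098 of 2169 KO B lineage cells, the pDC gate held 9.88% and 16.1% of cluster 11 and 0.0626% and 0.363% of B lineage cells. The lectin gate then held 60.2% and 59.5% of cluster 11, and the cDC1 gate 27.0% and 33.4% of cluster 14. In cluster 18 no cell was in the pDC, cDC1 or Zbtb46 with Itgax gate, where 0 of 91 and 0 of 92 cells allow shares of up to 3.30% and 3.26% at 3 counts of the total. These are limits on cells with a UMI of both genes at this depth (medians of 9745 and 10120.5 UMIs), not on cells that express them.

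The gates overlapped in cluster 11. In cluster 14 few cells could overlap, since the pDC gate held 1 het and 5 KO cells and the lectin gate 2 and 2. Of the pDC, cDC1 and lectin gates, cells of cluster 11 held exactly 1 in 64.3% of het and 64.2% of KO cells, 2 in 43 and 54 cells, and all 3 in 6 and 3 cells. Of the cells in the pDC gate, 36 of 47 in het and 47 of 68 in KO were also in the lectin gate, and 18 of 20 and 12 of 13 cells of the cDC1 gate were. The lectin gate held 83.2% of all het and 79.2% of all KO cells of cluster 11. In cluster 14, 2 het cells and 5 KO cells held more than 1 of the 3 gates, and the Zbtb46 with Itgax gate lay within the cDC1 gate in 28 of 28 het and 25 of 28 KO cells. There 1 of 1 het and 4 of 5 KO cells of the pDC gate were also in the cDC1 gate, as were 1 of 2 and 1 of 2 cells of the lectin gate.

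Among pairs of lectin genes in cluster 11, Mgl2 and Clec10a were both found in 74.6% and 68.6% of cells that had either, and Cd209a and Mgl2 in 53.7% and 50.8%. The order of these pairs turned with depth: with cells thinned to 2000 UMIs the shares were 30.0% and 29.4% for Mgl2 and Clec10a, and 36.7% and 34.0% for Cd209a and Mgl2. Cd209a and Clec4b1 were both present in 62.3% and 61.6%, and in 23.1% and 25.9% after thinning. For Clec4b1, 15 of 50 het cells (30.0%) and 22 of 69 KO cells (31.9%) with Siglech had it, and 65.8% and 73.1% of cells without Siglech did. It was found in 19.2% and 25.0% of cells with Clec9a, and in 62.4% and 65.3% of cells without Clec9a. Clec10a, by contrast, was found in 86.0% and 76.8% of cells with Siglech and in 87.0% and 81.3% of cells without.

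**Figure D5:**
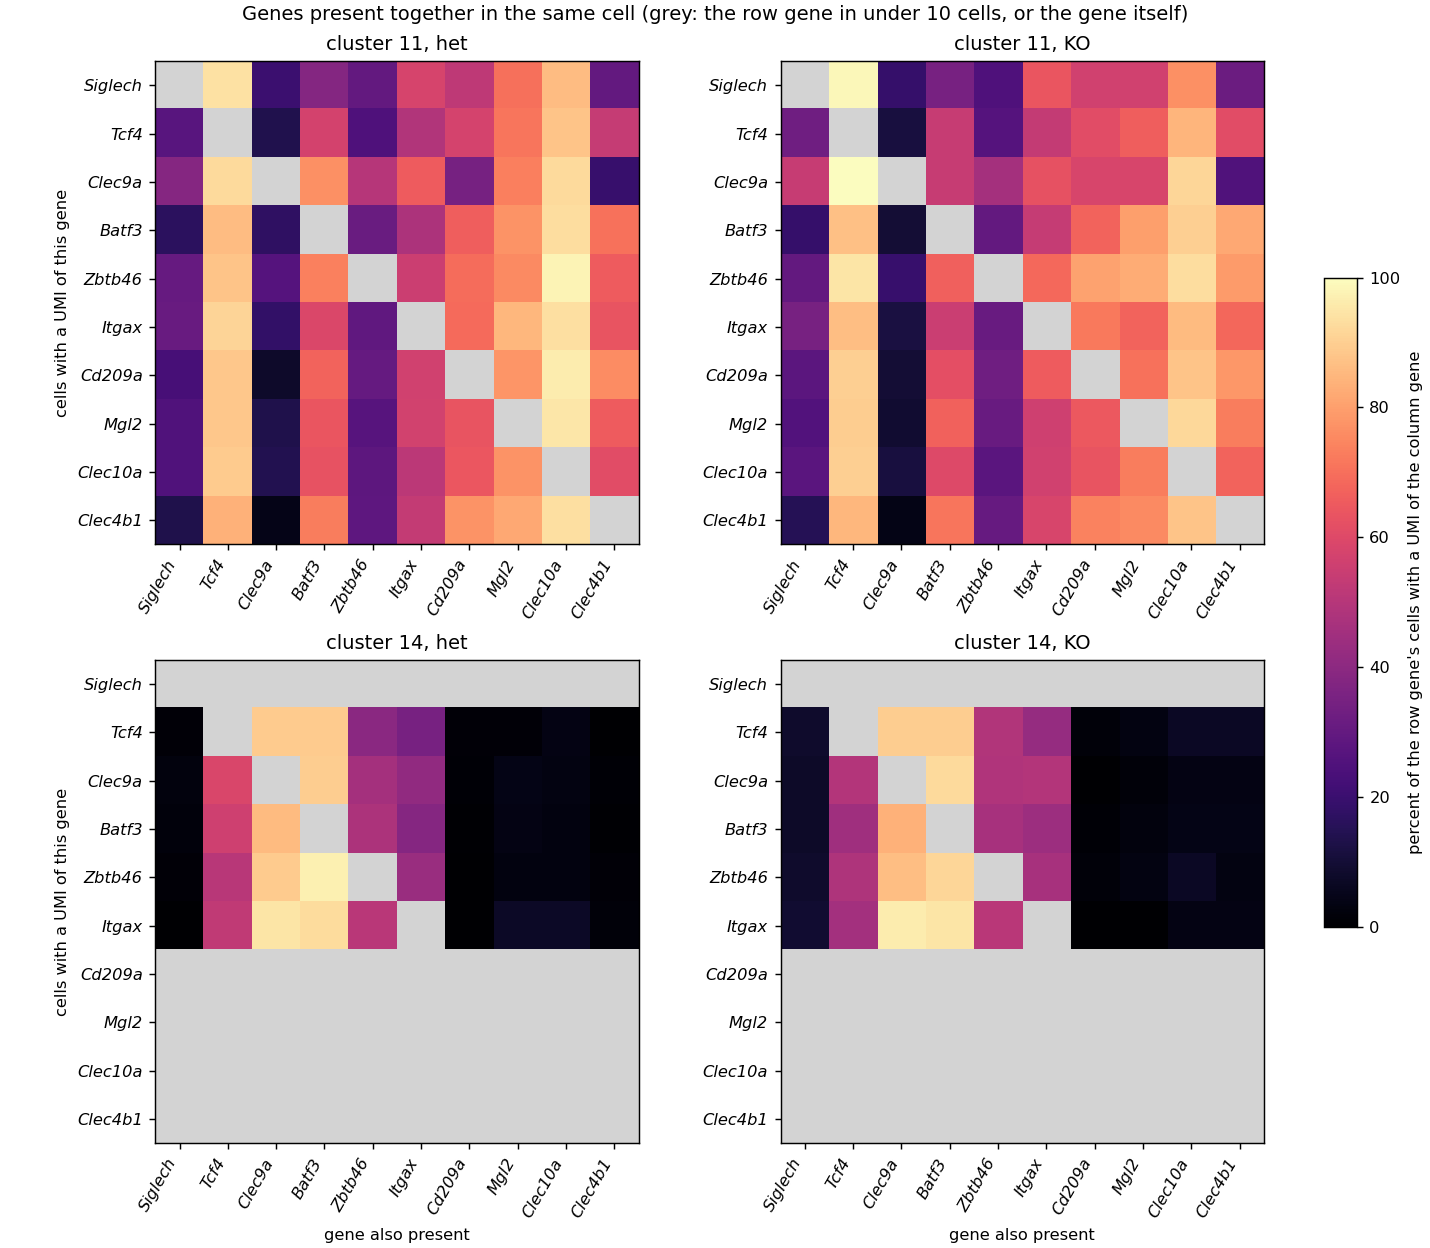
Percent of the cells with a UMI of the gene named at the left that also have a UMI of the gene named below, by colour, for clusters 11 (top) and 14 (bottom) in the het and KO libraries; grey squares are a gene with itself or genes found in under 10 cells. In cluster 11 the column of Clec4b1 is dark for cells with Siglech (30.0% and 31.9%) and Clec9a (19.2% and 25.0%), and in cluster 14 the lectin columns are near black.

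The wider subset lists were counted in the same way. In cluster 11, 6 of 15 measured pDC genes were at least 1.5-fold higher in KO and 0 lower, beside 3.73% and 9.6% of all genes. They included Upb1 (126 and 302 UMIs, ratio 2.19), Klk1 (2.23), Pacsin1 (2.05) and Ccr9 (1.70), and the list's median log2 ratio was 0.37. Of 13 cDC1 genes, 0 were higher and 4 lower, Xcr1 (141 and 58 UMIs, ratio 0.375), Ifi205 (0.492), Itgae (0.575) and Snx22 (0.553). The shares of pDC-marked and cDC1-marked cells, 7.14% and 10.7% in het and 13.3% and 6.67% in KO, are set by some of the same genes, and their part in these counts was not tested.

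Of 11 measured genes of the cDC2 list, 0 were higher and 2 lower in cluster 11. Over all genes measured in this cluster, 3.73% were higher and 9.6% lower. For lists of 11 to 13 genes, counts of 1 or 2 lie near these shares. Ccl17, a chemokine that draws T cells, had 1322 and 436 UMIs (ratio 0.301), in 25 het and 24 KO cells, with 377 and 124 of them in 1 cell each. Plet1 had 145 and 3 UMIs, with 75 of the het UMIs in 1 cell. The MHC class II genes were within 1.5-fold, with H2-Eb1 at 1.28 and Cd74 at 1.24. Of 12 genes of activated or migratory cells, 0 were higher and 2 lower, Ccl22 (0.390) and Cd40 (0.407). Of 13 close C-type lectin relatives, 1 was higher, Cd209b (1.85), and 2 were lower, Clec4e (0.304) and Clec4d (0.655).

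In cluster 14, 0 of 13 cDC1 genes were past 1.5-fold, with Xcr1 at 1.14 and Irf8, a transcription factor of cDC1 and pDC, at 1.11. Of 11 general conventional dendritic cell genes, 0 were past 1.5-fold, and their median log2 ratio was 0.11, beside -0.03 for all genes measured. Of 10 pDC genes 5 were higher in KO and 0 lower, Ly6d (66 and 162 UMIs, ratio 2.92), Upb1 (4 and 21 UMIs), Runx2 (2.13), Ccr9 (1.74) and Spib (1.59), beside 6.57% of all genes that were higher. In this cluster 0 het cells and 1 KO cell were pDC-marked, and the part of that cell in the pDC counts was not tested. Of 10 cDC2 genes 2 were higher, Ltb and Cd1d1. The intervals of Ccr9, Spib and Cd1d1 included 1. Of 12 activated or migratory genes, Cd40 was higher (2.65), and Fscn1 (0.550), an actin-bundling protein of mature dendritic cells, and Cacnb3 (0.595) were lower. Over all genes measured in this cluster, 10.8% were lower. Of 3 measured lectin relatives Cd209f was higher, with 3 and 24 UMIs.

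In cluster 18, 4 of 8 general conventional dendritic cell genes were higher in KO and 0 lower, beside 5.43% and 12.7% of all genes measured. These 4 were the MHC class II genes H2-Eb1, H2-Aa and H2-Ab1 with their chaperone Cd74. Of 8 pDC genes 2 were higher, the interferon-induced genes Bst2 (1.52) and Irf7 (1.55), and 2 were lower, Ly6d and Spib. Of 7 cDC1 genes Cd24a was lower. Of 9 cDC2 genes Il1r2 was higher and Irf4 and Ltb lower. Of 6 activated or migratory genes Relb was higher and Ccr7 and Cd80 lower, and of 6 lectin relatives Clec4e was lower (0.585). The intervals of Il1r2, Irf4, Ltb, Relb, Ccr7 and Cd80 all included 1. The summed B lineage markers of cluster 18 were 477 CPM in het and 74.8 CPM in KO, and its summed macrophage markers 475 and 1071 CPM. The part of these cells in the counts was not tested.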

How the data were processed

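Single-cell RNA of dural meninges was measured with 10x Genomics in 1 het and 1 KO library. The authors deposited UMI counts per gene and cell (10x matrices, and a table of annotated cells with cluster numbers), made with Cell Ranger 3.0.2 and mm10 per the submitters' processing notes. The table's percent of mitochondrial RNA was deposited by the authors and was read for quality only. All 12544 deposited cell totals equalled the sum of the cell's counts, 0 values of the 10 genes differed between the table and the matrices, and there were 0 other columns of per-sample values.

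Counts were summed per cluster and library and divided by all UMIs there (CPM). Intervals are exact (Poisson for a sum, conditional binomial for a ratio, Clopper-Pearson for a share). A gene was compared where it had at least 20 UMIs over both libraries, and counted as higher or lower at 1.5-fold. A library at 0 was set to the floor of 3 counts per library. Thinning used the exact hypergeometric expectation. Clusters 1, 2, 6, 10 and 16 were taken as B lineage. Further genes were named by rule: per list and cluster, at most the 4 measured genes whose ratio bound lay farthest from 1 and the 3 highest, and per member the 3 genes of most similar pattern; other list genes past 1.5-fold are named where a count of 5 or fewer is given, after their values were seen. Scrublet in scanpy 1.11.5 called 6 and 2 doublets among 10936 and 12046 barcodes, too few to use, and its calls were set aside. Whether its high scores mark doublets was not tested. The tenth of annotated cells with the highest scores was left out only as an alternative. Scripts ran in Python 3.11.15 with scipy 1.17.1 and were tested on simulated data. For 12544 of 12544 cells, the deposited sex label was female where Xist had a UMI and male where it had none. The members and lists were chosen with earlier results of these data known.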

Additional observations from a re-analysis of the deposited data

Results flagged for a closer look

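In cluster 11 the KO/het ratio of Cd209a was 1.6 among cells labelled female and 0.822 among cells labelled male, and that of Clec10a was 1.1 and 0.895, so both genes moved in opposite directions under the same comparison. The difference was not tested. The label follows the presence of an Xist UMI in every annotated cell, so it divides cells by that UMI, and 66.8% of het and 51.7% of KO cells of the cluster carry the label female.

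Barcodes without an annotation (4986 in het and 5452 in KO, with medians of 2343 and 2562.5 UMIs), which enter no comparison above, also held member genes. In them the KO/het ratio was 1.45 for Cd209a (337 and 547 UMIs), 1.16 for Mgl2 and 1.08 for Tcf4. Siglech, higher in KO in cluster 11, was lower in KO there, with 116 and 86 UMIs and a ratio of 0.664 (0.496 to 0.885). The genes of these barcodes were assigned to no cluster.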

How the results depend on the processing

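No paired analysis was possible because each genotype has 1 library, and no replicate could be left out. Leaving out or keeping marked cells, and other marker limits, were alternatives chosen after seeing the data. In cluster 11, 3 members were past 1.5-fold; the number was 0 at a fold of 2, 1 without cDC1-marked cells and 0 without pDC- and cDC1-marked cells. In cluster 14 (4 members) it was 0 with at least 50 UMIs, 0 without the highest doublet scores (5 members then reached 20 UMIs), 1 without cDC1-marked cells and 1 without pDC- and cDC1-marked cells. In cluster 18 (4 members) it was 2 at a fold of 2 and 1 with at least 50 UMIs. Directions turned for Clec9a in cluster 11 (1.66 in cells labelled male, 1.16 without cDC1-marked cells), for Mgl2 in cluster 14 (0.300 without the top cell of each library, 0.122 without the highest doublet scores, where it had under 20 UMIs, and 0.750 in cells labelled male, which is a bound because KO had 0 UMIs, set to 3, against 6 in het), for Clec10a in cluster 14 (0.156 without the highest doublet scores, with under 20 UMIs) and, on very few UMIs, for Cd209a in cluster 18 (0.369, 0.00626 to 7.09, in cells labelled male, from 2 het and 1 KO UMIs). Leaving out the top cell took 18 of the 20 Mgl2 UMIs of KO cells in cluster 14, and for the other turns the cause was not tested. Without both pDC- and cDC1-marked cells, Clec9a in cluster 11 was again lower in KO (2.89 CPM in het and 1.33 CPM in KO). In cluster 11, in cells labelled male, Cd209a (0.822), Mgl2 (0.913) and Clec10a (0.895) also fell below 1, from ratios of 1.26, 1.20 and 1.03 within 1.5-fold. Siglech in cluster 11 stayed past 1.5-fold at 2.36 without the highest doublet scores and 1.70 in cells labelled male.

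Gate shares followed depth. With 2 UMIs, 2000 UMIs per cell or 5000 UMIs per cell, the pDC gate of cluster 11 held 12.2%, 6.17% and 9.88% in het and 18.3%, 11.2% and 16.1% in KO. The lectin gate held 69.4%, 38.9% and 60.2% in het and 69.2%, 40.8% and 59.5% in KO. The cDC1 gate of cluster 14 held 45.9%, 7.41% and 27.0% in het and 63.6%, 9.31% and 33.4% in KO, and 83.2% and 87.9% without the highest doublet scores. The pDC-marked share was 13.8% in het and 17.5% in KO with at least 3 markers, and 3.95% and 14.3% without the highest doublet scores, and the cDC1-marked share was 20.9% in het and 18.3% in KO with at least 3 markers. Shares of 2 genes together moved in 56 of 88 cases when 2 UMIs were needed and in 71 of 88 when cells were thinned to 2000 UMIs. All 24 member ratios were the same from the 10x matrices and within counting error after centring on the median gene.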

Other observations

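Itgax was also present in lymphoid cells. In cluster 9, cells annotated as NK had 16 Itgax UMIs in het and 24 in KO, or 33.5 and 39.0 CPM, in 13.5% of 52 and 18.5% of 54 cells. The intervals of these levels overlapped those of cluster 14. Cells of that cluster annotated as ILC2s (66 and 65 cells) and gdTcells (76 and 102 cells) had 0 Itgax UMIs in both libraries.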
